A study of Arabidopsis thaliana with 40 samples.

Results

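The transcript response of the rpoTmp mutant of Arabidopsis thaliana to 4 d of moderate light with drought (MLD) was read from 8 leaf arrays of a study of 40 arrays in 16 groups. The 8 arrays were chosen by the mutant line and treatment in their labels: 4 from MLD-stressed and 4 from untreated plants, with 2 arrays per treatment from each of 2 lines, and the lines weighed equally. MLD plants stood in about 350 µE of light on soil left unwatered since 4 d before the move. Untreated plants stayed at 100 µE and were watered every 2 d, and all plants were grown in long days of 16 h light at 22 °C. The response was set against that of the WT(Col0) arrays labelled as its control (3 MLD and 3 untreated), of the aox1a mutant (2 lines, 4 MLD and 4 untreated) and of the aox1a:rpoTmp mutant (3 MLD and 3 untreated). The WT(Col0) arrays labelled as controls for aox1a and for aox1a:rpoTmp (3 MLD and 3 untreated each) served where wild-type responses were subtracted. The rpoTmp plants are 5 weeks old in the sample characteristics and in the treatment protocol but 4 weeks in the source names, and their wild type is 4 weeks old in all of these. The aox1a plants and their wild type are 4 weeks old in all. The double mutant is 5 weeks (untreated) or 4 weeks (MLD) old in its characteristics, 4 weeks in its source names and 6 to 7 weeks in the protocol. Its wild type is 5 weeks (untreated) or 4 weeks (MLD) old in the characteristics, and 4 weeks in the source names and the protocol. The labels do not say what kind of allele each line carries, nor whether replicate arrays came from separate plants, so p-values measure only the spread between these arrays.

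RPOTMP encodes an RNA polymerase of the bacteriophage type that is imported into both mitochondria and plastids, where it transcribes organelle genes beside other polymerases. Most proteins of both organelles are nevertheless encoded in the nucleus, so leaf stress is read from nuclear and organellar transcripts together. In leaves under strong light and water shortage, anthocyanins typically build up in the vacuole, light-harvesting and chlorophyll synthesis are cut back, growth stops, and older leaves recycle their nitrogen through proteolysis and autophagy.

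Signals are given as log2 of the deposited values, and changes as MLD minus untreated on that scale, with the standard error (SE) of a linear model over the 14 arrays of rpoTmp and its wild type. Where 4 values are given for a group of rpoTmp arrays, those of line 2 (replicates 1 and 2) precede those of line 1. A probe set was called when its Benjamini-Hochberg adjusted p was under 0.05. Log2 signals between 2 and 3 lie near the lower quartile of an array (5.55 to 5.85 before the log), where a fall ends and where the size of a rise from it is not exact. Across the 14 arrays the medians lay between 23.51 and 27.16 and the upper quartiles between 157.6 and 171.8. RPOTMP itself (AT5G15700) was dim in rpoTmp and its wild type and so gave no check of the labels. AT5G15700 had log2 signals of 3.56, 2.66, 2.56 and 2.60 in MLD-stressed rpoTmp, against 2.70, 2.49, 2.42 and 2.55 in untreated rpoTmp, with 2.80, 2.78 and 2.96 in MLD-stressed wild type, against 2.75, 2.76 and 2.99 in untreated wild type.

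The 14 arrays separated along a first principal component that held 67.6% of the variance. MLD-stressed rpoTmp lay at 90.94 to 110.79 on it, and untreated rpoTmp at -59.94 and -44.02 in line 2 and at -33.01 and -15.54 in line 1. MLD-stressed wild type lay at -36.31 to -17.10 and untreated wild type at -64.47 to -52.02. The untreated arrays of line 1 thus lay within or beyond the range of stressed wild type. Signs of RNA quality moved with the treatment. The log2 ratio of the 3′ to the 5′ control probe sets was 3.45 to 3.89 for GAPDH in MLD-stressed rpoTmp, against 3.03 to 3.22 in untreated rpoTmp, and 6.57 to 6.82 for actin, against 5.83 to 6.26. In wild type the GAPDH ratio was 3.21 to 3.82 under MLD, against 3.01 to 3.38 untreated. The ranges of rpoTmp did not overlap, and the part of RNA quality in the results was not tested. Leaf markers were high in all arrays: their 5 measured genes summed to signals of 29711.6 to 35703.8 in MLD-stressed and 46213.8 to 54299.4 in untreated rpoTmp, with 1 gene called higher (2 without line 2 untreated replicate 1) and 3 lower. RCA, the activator of Rubisco, differed by 0.12 ± 0.07 (SE, adjusted p = 0.221). Of the measured markers of root (3 genes), guard cell lineage (3), seed storage (2) and floral organs (1), none was called, and all but FMA were dim. Their summed signals in MLD-stressed and untreated rpoTmp were 11.6 to 11.9 and 11.8 to 21.3 for root, 56.0 to 110.8 and 84.0 to 102.6 for the guard cell lineage, mostly FMA, 8.5 to 8.9 and 8.8 to 9.0 for seed storage, and 4.3 to 4.4 and 4.4 for floral organs. The vascular list held 1 measured gene, PHV, a homeodomain regulator of leaf and vascular patterning, which rose by 1.44 ± 0.23 (SE, adjusted p = 0.000922), with signals of 129.5 to 243.3 in MLD-stressed and 51.6 to 89.2 in untreated rpoTmp. In whole leaves, fewer cells of a type and less RNA per cell cannot be told apart.

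MLD changed a large share of the measured transcripts of rpoTmp leaves. Of 22746 probe sets, 7891 were called (34.7%), 4098 higher and 3793 lower. A called change of at least 1 on the log2 scale, in either direction, was found for 3585 probe sets (15.8%), and one of at least 3 for 419 (1.84%). On 7423 probe sets (32.6%) the 4 MLD arrays and the 4 untreated arrays did not overlap, and this held for 6452 of the 7891 called (81.8%). The median change over all probe sets was -0.01. Counted with 1 probe set for each of 13356 genes, 2097 genes were higher (15.7%) and 2010 lower (15%). These shares are the background for the counts of gene groups below, and they count dim and bright genes alike. Among the 10890 probe sets with a mean log2 of at least 5, 6715 were called, 3358 higher and 3357 lower. Both are larger shares than among all 22746 probe sets. A list of bright genes above the background may therefore not exceed other bright genes, which was not tested.

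Anthocyanin genes showed the largest rises among the named genes. Of 8 measured genes of flavonoid and anthocyanin synthesis (of 34 listed), 7 were called higher and none lower, with a median change of 5.65. AT4G14090, an anthocyanin glucosyltransferase, had the largest rise among the 13356 genes with a probe set of their own. AT4G14090 had log2 signals of 12.33, 12.02, 12.08 and 12.25 in MLD-stressed rpoTmp, against 4.65, 3.33, 4.97 and 4.71 in untreated rpoTmp. The 4 stressed arrays lay close together and far above all untreated ones, and the change was 7.75 ± 0.43 (SE, adjusted p = 3.01e-06). DFR encodes dihydroflavonol reductase, the enzyme that turns dihydroflavonols toward anthocyanins. DFR had log2 signals of 13.08, 12.81, 12.86 and 13.22 in MLD-stressed rpoTmp, against 5.35, 5.58, 5.10 and 4.98 in untreated rpoTmp, a rise of 7.74 ± 0.70 (SE, adjusted p = 3.32e-05). UF3GT, the glycosyltransferase that adds xylose to anthocyanins, gave 12.33, 11.95, 12.06 and 12.48 in MLD-stressed rpoTmp, against 4.50, 3.98, 5.17 and 5.91 in untreated rpoTmp, a rise of 7.32 ± 0.51 (SE, adjusted p = 8.37e-06). In these 3 genes the untreated mutant was itself above all untreated wild-type arrays, which had 1.72 to 3.38. AT5MAT, which attaches malonyl groups to anthocyanins, was at the floor in untreated rpoTmp. AT5MAT had log2 signals of 8.86, 7.97, 7.67 and 8.94 in MLD-stressed rpoTmp, against 2.12, 2.19, 2.18 and 2.15 in untreated rpoTmp, a rise of 6.20 ± 0.39 (SE, adjusted p = 4.95e-06). UGT78D2, the 3-O-glucosyltransferase of flavonols and anthocyanins, rose by 4.86 ± 0.21 (SE, adjusted p = 9.83e-07) and CHIL, a chalcone isomerase-like protein, by 5.10 ± 0.49 (SE, adjusted p = 4.73e-05). The remaining members were the flavonol rhamnosyltransferase UGT78D1, which rose by 1.31 ± 0.30 (SE, adjusted p = 0.0072), and the arabinosyltransferase UGT78D3, which was dim and differed by 0.53 ± 0.33 (SE, adjusted p = 0.29).

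**Figure D1:**
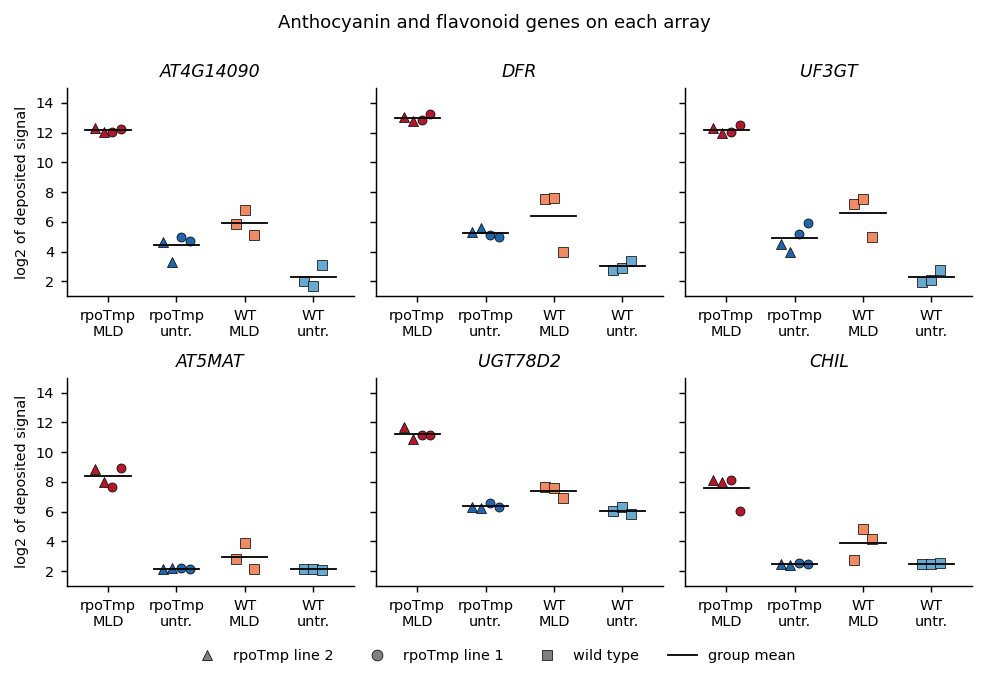
Log2 of the deposited signal of 6 genes of anthocyanin and flavonoid synthesis on each of the 14 arrays (points; triangles line 2, circles line 1, squares wild type; bars are group means). In every panel the 4 arrays of MLD-stressed rpoTmp lie above the wild-type arrays of either treatment. They also lie above all untreated rpoTmp arrays, which the rule that named these 6 genes required.

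Genes tied to senescence and to the breakdown of proteins and nitrogen compounds rose. Genes of senescence and nitrogen recycling, all 6 measured (of 31 listed), were called higher, with a median change of 2.19. BETA-VPE and GAMMA-VPE, vacuolar processing enzymes that are cysteine proteases, had the largest rises of the list. BETA-VPE had log2 signals of 10.14, 10.43, 10.70 and 9.93 in MLD-stressed rpoTmp, against 3.97, 3.92, 4.35 and 5.26 in untreated rpoTmp, a rise of 5.92 ± 0.33 (SE, adjusted p = 3.16e-06). GAMMA-VPE had log2 signals of 14.65, 13.997, 14.32 and 14.70 in MLD-stressed rpoTmp, against 10.53, 11.17, 12.02 and 12.52 in untreated rpoTmp, a rise of 2.86 ± 0.23 (SE, adjusted p = 1.98e-05). Line 1 was the higher of the lines in the untreated state for both genes, and its rise was the smaller. PPDK, pyruvate orthophosphate dikinase, which takes part in nitrogen remobilisation from ageing leaves, rose by 2.54 ± 0.19 (SE, adjusted p = 1.24e-05). WRKY53, a transcription factor of early leaf senescence, overlapped between treatments (adjusted p = 0.0468), and its call was lost without any 1 of 9 arrays. SAG101, a senescence-associated acyl hydrolase, and ALPHA-VPE made up the list with rises of 0.55 and 0.25. The count of 6 was 4 without line 1 MLD replicate 1.

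Autophagy carries cell contents to the vacuole, with ATG8 proteins coating the vesicle membrane. Of 10 measured autophagy genes (of 29 listed, a list added after values were seen), 9 were called higher and none lower, with a median change of 1.22. In all 10 the 4 stressed arrays lay above the 4 untreated ones, which did not overlap in 29.7% of all genes. ATG8B had log2 signals of 8.86, 8.11, 8.70 and 8.85 in MLD-stressed rpoTmp, against 5.88, 6.39, 6.66 and 7.08 in untreated rpoTmp, a rise of 2.13 ± 0.23 (SE, adjusted p = 9.97e-05). APG8A had log2 signals of 10.74, 10.21, 10.18 and 10.25 in MLD-stressed rpoTmp, against 8.53, 8.48, 9.08 and 9.14 in untreated rpoTmp, a rise of 1.54 ± 0.13 (SE, adjusted p = 2.7e-05). Further ATG8 members rose by 2.02 (ATG8G), 1.31 (APG8H, as the gene table spells it), 1.29 (ATG8F), 1.15 (ATG8D), 0.94 (ATG8H) and 0.79 (ATG8C). ATG3, the enzyme that attaches ATG8 to the membrane lipid, rose by 1.05 ± 0.10 (SE, adjusted p = 3.48e-05), while ATG8E differed by 0.59 ± 0.24 (SE, adjusted p = 0.0923). Of 7 measured genes of ureide and amino acid catabolism, another list added later, 6 were called higher, with a median of 1.82. CuAO1, a copper amine oxidase, had 8.28, 7.63, 7.93 and 7.86 in MLD-stressed rpoTmp, against 5.03, 4.73, 5.66 and 6.25 in untreated rpoTmp, a rise of 2.51 ± 0.22 (SE, adjusted p = 2.59e-05). ALN (allantoinase) and AAH (allantoate amidohydrolase), successive enzymes in the release of nitrogen from purines, rose by 2.44 ± 0.45 (SE, adjusted p = 0.00203) and 1.82 ± 0.24 (SE, adjusted p = 0.000301). DELTA-OAT, ornithine aminotransferase, rose by 2.36 ± 0.24 (SE, adjusted p = 6.25e-05). Without line 1 untreated replicate 1 the count of 6 became 4.

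Further strong risers carried no gene name or belonged to other lists. AT5G39520 had log2 signals of 10.89, 9.92, 9.88 and 8.83 in MLD-stressed rpoTmp, against 3.02, 3.26, 2.24 and 2.31 in untreated rpoTmp, a rise of 7.17 ± 0.50 (SE, adjusted p = 8.37e-06). AT5G38710 had log2 signals of 9.22, 8.76, 9.76 and 9.65 in MLD-stressed rpoTmp, against 2.62, 4.04, 2.83 and 4.11 in untreated rpoTmp, a rise of 5.95 ± 0.56 (SE, adjusted p = 3.97e-05). Both genes were at or near the floor in untreated plants. HIS1-3, the drought-inducible form of the linker histone H1, gave 10.91, 10.95, 11.27 and 11.73 in MLD-stressed rpoTmp, against 4.66, 6.73, 6.02 and 8.09 in untreated rpoTmp. Its untreated signals were uneven in both lines, and it rose by 4.84 ± 0.62 (SE, adjusted p = 0.00023). Rises of 5.90 (AT2G04460), 5.89 (AT1G68620), 5.43 (AT4G00700), 5.14 (AT2G25625) and 4.82 (AT4G23680) complete the 15 largest rises among genes with a mean log2 of at least 5 under MLD and no overlap between treatments.

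Chlorophyll synthesis fell. Of 8 measured genes (of 27 listed), 7 were called lower and none higher, with a median of -1.97. PORB had log2 signals of 7.05, 8.38, 8.12 and 7.02 in MLD-stressed rpoTmp, against 12.19, 12.24, 11.70 and 11.25 in untreated rpoTmp, and it fell by 4.21 ± 0.32 (SE, adjusted p = 1.27e-05); PORB reduces protochlorophyllide in the light. HEME1 had log2 signals of 5.06, 4.09, 5.84 and 4.79 in MLD-stressed rpoTmp, against 9.90, 9.28, 8.94 and 8.37 in untreated rpoTmp, and it fell by 4.18 ± 0.29 (SE, adjusted p = 8.43e-06); HEME1 is a uroporphyrinogen decarboxylase. The stressed arrays lay below all untreated arrays in both genes, and line 2 had the higher untreated signals. HEMB1, the porphobilinogen synthase, had 7.52, 8.29, 7.67 and 7.79 in MLD-stressed rpoTmp, against 10.37, 10.30, 10.14 and 9.71 in untreated rpoTmp, and fell by 2.31 ± 0.17 (SE, adjusted p = 9.65e-06). CHLM, the magnesium protoporphyrin methyltransferase, fell by 2.15 ± 0.17 (SE, adjusted p = 1.85e-05). CHLI2, GSA1 and HEME2 fell by 1.59, 1.32 and 1.79. HEMA2, a glutamyl-tRNA reductase, was not called (change -0.17, adjusted p = 0.637).

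Nuclear genes of the photosystems fell with 1 exception. Of 7 measured genes (of 41 listed), 6 were called lower and 1 higher, with a median of -0.97. LHCB4.1, LHCB4.2 and LHCB4.3 encode forms of CP29, a minor antenna protein of photosystem II, and they differed in direction. LHCB4.2 had log2 signals of 9.19, 11.28, 9.97 and 9.44 in MLD-stressed rpoTmp, against 13.06, 13.22, 12.91 and 13.06 in untreated rpoTmp, and it fell by 3.09 ± 0.36 (SE, adjusted p = 0.000131). LHCB4.1 had log2 signals of 12.54, 13.04, 12.64 and 12.69 in MLD-stressed rpoTmp, against 13.74, 13.83, 13.68 and 13.53 in untreated rpoTmp, and it fell by 0.97 ± 0.10 (SE, adjusted p = 5.52e-05). LHCB4.3 had log2 signals of 11.37, 11.17, 11.35 and 11.78 in MLD-stressed rpoTmp, against 10.92, 9.996, 10.87 and 10.41 in untreated rpoTmp, a rise of 0.87 ± 0.19 (SE, adjusted p = 0.00609). LHCB4.3 therefore moved against both other forms, and all 3 kept their 4 stressed arrays apart from the untreated ones. Among photosystem I subunits, PSAN fell by 2.15 ± 0.16 (SE, adjusted p = 1.05e-05) and PSAE-1 by 1.38 ± 0.10 (SE, adjusted p = 8.92e-06). Of photosystem II subunits, PSBY fell by 0.78 and PSBW by 0.65. Among enzymes of carbon fixation and electron transport, 2 of 5 were lower (1 without untreated replicate 1 of either line, and then 1 higher without that of line 2), with AT1G56190, listed as a phosphoglycerate kinase, falling by 1.38 ± 0.14 (SE, adjusted p = 7.03e-05). In photorespiration, 1 of 3 measured genes was lower and 1 higher. AT1G11860, listed as the T protein of glycine decarboxylase, had 11.13, 11.27, 11.20 and 11.28 in MLD-stressed rpoTmp, against 12.997, 12.21, 12.41 and 12.26 in untreated rpoTmp, and fell by 1.25 ± 0.14 (SE, adjusted p = 0.00012). HPR, the hydroxypyruvate reductase of peroxisomes, rose by 0.20 ± 0.07 (SE, adjusted p = 0.0482), a call that was lost without any 1 of 11 arrays, with an adjusted p of up to 0.164.

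**Figure D2:**
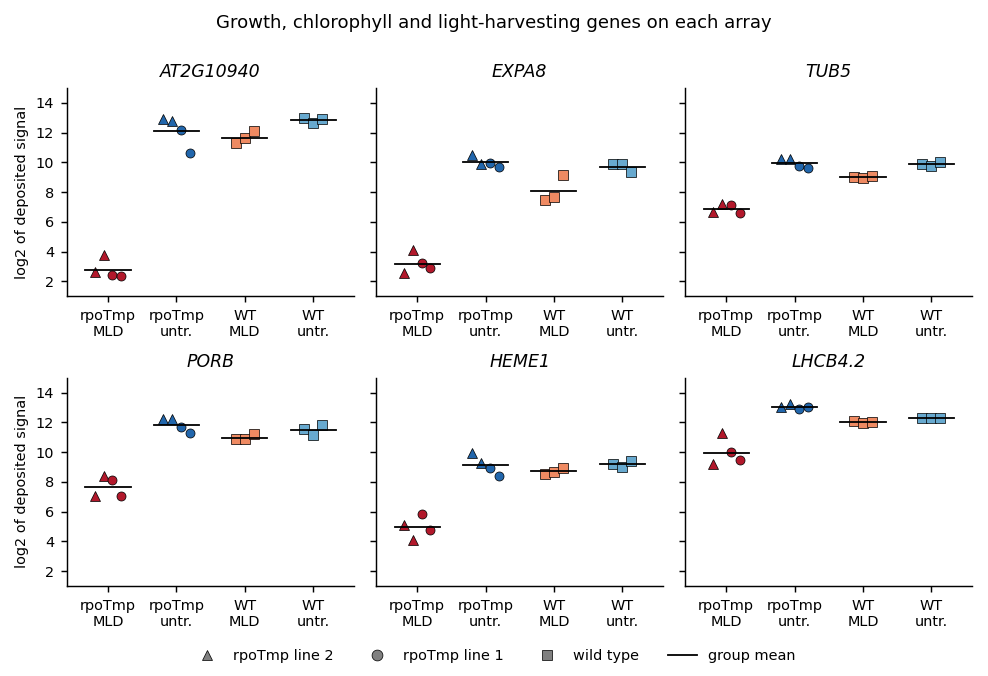
Log2 of the deposited signal of 6 genes that fell under MLD in rpoTmp, drawn as in the plot of anthocyanin genes. The 4 stressed rpoTmp arrays lie below all other arrays, while the means of stressed and untreated wild type differ by -1.60 at most, for EXPA8. For AT2G10940 and EXPA8 the naming rule required that the rpoTmp treatments not overlap.

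Plastid-encoded transcripts changed little in size and in both directions. Of 69 measured genes (of 85 listed), 21 were lower and 8 higher, with a median of -0.23 and a range from -1.46 to 1.53. The largest rise was that of rbcL, the large subunit of Rubisco. rbcL had log2 signals of 12.55, 12.73, 12.67 and 12.87 in MLD-stressed rpoTmp, against 10.92, 10.74, 11.17 and 11.85 in untreated rpoTmp, a rise of 1.53 ± 0.19 (SE, adjusted p = 0.000171). Stressed arrays of both lines lay above all untreated ones. Ribosomal protein rpl20 rose by 0.88 ± 0.17 (SE, adjusted p = 0.00273). The largest fall was that of atpI, a subunit of the plastid ATP synthase. atpI had log2 signals of 7.51, 7.50, 7.70 and 7.63 in MLD-stressed rpoTmp, against 9.52, 8.91, 8.83 and 8.92 in untreated rpoTmp, and it fell by 1.46 ± 0.23 (SE, adjusted p = 0.000936). Of the photosystem II core, psbD (D2) fell by 1.18 ± 0.28 (SE, adjusted p = 0.00851) with overlapping arrays and a fall of 0.49 in line 2 and 1.87 in line 1. petG of the cytochrome b6f complex fell by 1.14 ± 0.21 (SE, adjusted p = 0.00239) and rpl36 by 1.01 ± 0.19 (SE, adjusted p = 0.00212). Without 1 array the counts lay between 4 and 9 higher (lowest without line 2 MLD replicate 2) and between 14 and 24 lower (lowest without line 1 MLD replicate 1). The higher count was 5 without MLD or untreated replicate 1 of line 1. Summed signals of the list were 418929.2 to 478400.3 in stressed and 454528.1 to 510803.2 in untreated rpoTmp, which overlap. Of 14 measured nuclear genes for editing and splicing of organelle RNA, a list added after values were seen, 4 were lower and none higher (2 higher without line 1 MLD replicate 1 or line 2 untreated replicate 1), CRR41 by 1.43 ± 0.24 (SE, adjusted p = 0.00133) and OTP85 by 0.83 ± 0.09 (SE, adjusted p = 0.000121), both pentatricopeptide repeat proteins of plastid RNA processing.

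Mitochondrially encoded transcripts were higher where they were called. Of 16 measured genes, 7 were higher and none lower, with a median of 0.43, and of their 23 probe sets 9 were higher. cox1 and cox2 encode core subunits of cytochrome c oxidase. cox1 had log2 signals of 5.46, 6.14, 5.25 and 5.26 in MLD-stressed rpoTmp, against 3.99, 4.24, 3.90 and 4.005 in untreated rpoTmp, a rise of 1.49 ± 0.19 (SE, adjusted p = 0.000239). In wild type, cox1 had 7.99, 7.16 and 7.53 in MLD-stressed wild type, against 7.80, 7.62 and 7.48 in untreated wild type. The mutant was therefore below wild type in both states and rose only part of the way. cox2 had log2 signals of 8.29, 8.28, 7.86 and 7.99 in MLD-stressed rpoTmp, against 6.89, 7.19, 6.78 and 7.12 in untreated rpoTmp, a rise of 1.11 ± 0.19 (SE, adjusted p = 0.00131). Wild type had 5.38, 5.47 and 5.11 in MLD-stressed wild type, against 5.51, 5.51 and 4.67 in untreated wild type, below the mutant in both states. ccb452, a gene for cytochrome c maturation, had 9.79, 10.19, 10.69 and 10.13 in MLD-stressed rpoTmp, against 8.75, 8.84, 8.62 and 9.18 in untreated rpoTmp, a rise of 1.35 ± 0.22 (SE, adjusted p = 0.00101). Probe sets of a gene did not all move: 2 of 7 were called for nad1 and 1 of 2 for nad5, both subunits of complex I. The count of 7 was 4 without line 1 MLD replicate 1 or line 1 untreated replicate 2.

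Nuclear genes of the mitochondrial stress response rose in part. Of 11 measured genes (of 23 listed), 5 were higher and none lower, with a median of 0.76. In line 2 the median was 1.38 with 5 called higher, where 11.9% of all genes were. In line 1 it was 0.15 with 2 called higher, where 8.98% of all genes were. These values do not test a difference between the lines. AT2G21640 and AT2G41730 of this list had differences of 0.26 and 1.74 in line 2 and of -0.83 and -0.48 in line 1, none of them called. AT5G64400 had log2 signals of 12.71, 12.43, 12.49 and 12.50 in MLD-stressed rpoTmp, against 11.90, 11.52, 11.84 and 11.76 in untreated rpoTmp, a rise of 0.78 ± 0.09 (SE, adjusted p = 0.000106). NDB2, an external alternative NAD(P)H dehydrogenase, had 8.10, 7.54, 7.95 and 7.33 in MLD-stressed rpoTmp, against 6.03, 6.14, 6.91 and 7.06 in untreated rpoTmp, a rise of 1.20 ± 0.19 (SE, adjusted p = 0.000825). AT2G04050, a MATE-type transporter, had 4.65, 5.37, 5.25 and 3.99 in MLD-stressed rpoTmp, against 2.97, 2.89, 2.94 and 3.56 in untreated rpoTmp, a rise of 1.73 ± 0.26 (SE, adjusted p = 0.000648). Of the 5 measured genes of alternative respiration, NDB3 rose and NDC1 fell beside NDB2, and 1 more was lower without either MLD array of line 2. NDB3 had log2 signals of 5.19, 4.58, 6.01 and 5.13 in MLD-stressed rpoTmp, against 2.49, 2.51, 3.12 and 4.13 in untreated rpoTmp, a rise of 2.16 ± 0.25 (SE, adjusted p = 0.000134). NDC1, a type II dehydrogenase found in plastids and mitochondria, fell by 0.68 ± 0.14 (SE, adjusted p = 0.0037). In the respiratory chain, 3 of 6 measured genes of succinate dehydrogenase and cytochrome c, another list added after values were seen, were higher: CYTC-2 by 1.54 ± 0.22 (SE, adjusted p = 0.000487), SDH1-1 by 1.31 ± 0.20 (SE, adjusted p = 0.000779) and SDH2-1 by 0.62 ± 0.15 (SE, adjusted p = 0.00826).

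The largest falls among genes named by rule were those of AT2G10940, of 2 other genes without a name in the tables used here, and of an expansin. AT2G10940 had log2 signals of 2.60, 3.80, 2.40 and 2.37 in MLD-stressed rpoTmp, against 12.92, 12.75, 12.15 and 10.66 in untreated rpoTmp, and it fell by 9.33 ± 0.35 (SE, adjusted p = 5.52e-07). Of its stressed signals, all but 1 lay at the floor, so that the size of the fall is not exact. EXPA8, an expansin that loosens cell walls, had 2.56, 4.08, 3.22 and 2.88 in MLD-stressed rpoTmp, against 10.47, 9.90, 9.97 and 9.72 in untreated rpoTmp, and fell by 6.83 ± 0.42 (SE, adjusted p = 4.63e-06). AT5G44020 and AT1G66100 fell by 7.49 and 7.11. AT5G03350 fell by 6.5. Falls of 6.42 (AT3G05730), 6.30 (AT4G23820), 6.12 (AT5G13140), 6.03 (AT1G09750) and 6.003 (AT1G31690) came next. AT5G03350 spread widely under stress, with 6.32, 7.37, 6.66 and 2.99 in MLD-stressed rpoTmp, against 12.59, 12.11, 12.29 and 12.35 in untreated rpoTmp. DRT100, a leucine-rich repeat protein first described for tolerance of DNA damage, fell by 5.66 ± 0.32 (SE, adjusted p = 3.15e-06).

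Most measured tubulins and actins, and several genes of the cell wall and of DNA replication, fell. Of 13 measured genes of pectin and cellulose-like synthesis, 6 were lower and 1 higher, with a median of -1.61. The higher call was lost without any 1 of 4 rpoTmp arrays: MLD replicate 2 or untreated replicate 1 of line 1, or replicate 1 of either treatment of line 2. CSLC04 had log2 signals of 4.72, 4.67, 5.05 and 4.40 in MLD-stressed rpoTmp, against 8.92, 8.87, 8.67 and 7.83 in untreated rpoTmp, and it fell by 3.86 ± 0.18 (SE, adjusted p = 1.55e-06); CSLC04 makes the glucan backbone of xyloglucan. The mannan synthase family member CSLA03 fell by 2.88 ± 0.20 (SE, adjusted p = 8.32e-06). Of 29 measured expansins and xyloglucan endotransglucosylases 6 were lower and 1 higher, with a median of -0.05, a share of lower calls near the 15% of all genes. Their lower count was 4 without line 1 untreated replicate 1, and the higher call was lost without that array, line 1 MLD replicates 1 or 2, line 2 MLD replicate 2 or line 2 untreated replicate 2. XTH32 of this list had 3.23, 3.73, 4.63 and 3.43 in MLD-stressed rpoTmp, against 8.06, 6.87, 7.57 and 5.98 in untreated rpoTmp, and fell by 3.36 ± 0.45 (SE, adjusted p = 0.000316). Of 9 measured tubulins and actins, 7 were lower and none higher, with a median of -1.56. TUB5 had log2 signals of 6.65, 7.23, 7.13 and 6.60 in MLD-stressed rpoTmp, against 10.23, 10.20, 9.77 and 9.63 in untreated rpoTmp, and it fell by 3.06 ± 0.14 (SE, adjusted p = 1.33e-06). TUB7, another beta-tubulin, fell by 2.87 ± 0.20 (SE, adjusted p = 9.18e-06) and the alpha-tubulin TUA6 by 2.14 ± 0.19 (SE, adjusted p = 2.84e-05). Of 4 measured genes of DNA replication, a list added after values were seen, 3 were lower; POLA3, of the DNA polymerase alpha-primase complex, had 3.28, 3.20, 3.56 and 3.27 in MLD-stressed rpoTmp, against 7.76, 7.28, 6.40 and 5.998 in untreated rpoTmp, and fell by 3.53 ± 0.17 (SE, adjusted p = 1.64e-06). Among 6 histones, HTB2 (histone H2B) fell by 2.96 ± 0.25 (SE, adjusted p = 2.26e-05), and HIS1-3 was the 1 that rose. RALF-like signalling peptides, which act in growth, were lower in 5 of 11 (also an added list), RALFL34 by 3.20 ± 0.26 (SE, adjusted p = 1.97e-05), and 1 was higher without line 2 MLD replicate 1. Of 22 TRICHOME BIREFRINGENCE-LIKE genes, an added list and a family of cell wall acetyltransferases, 5 were lower and 1 higher, with a median of -0.08, and 3 were lower without line 2 untreated replicate 1. This share too lies near that of all genes, and 2 were higher without MLD replicate 1 of either line. TBL45 fell by 4.62 ± 0.32 (SE, adjusted p = 8.32e-06), whereas TBL38 had 9.30, 9.30, 9.002 and 9.54 in MLD-stressed rpoTmp, against 4.74, 4.91, 6.74 and 6.82 in untreated rpoTmp, a rise of 3.48 ± 0.23 (SE, adjusted p = 6.36e-06).

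Drought, oxidative and defence genes gave mixed directions. Of 6 measured genes of drought and abscisic acid (of 45 listed), 2 were higher and 1 lower (2 lower without line 1 MLD replicate 1 or line 2 MLD replicate 2). COR47, a dehydrin, had 12.50, 12.40, 12.38 and 12.03 in MLD-stressed rpoTmp, against 10.34, 10.41, 10.10 and 10.85 in untreated rpoTmp, a rise of 1.90 ± 0.28 (SE, adjusted p = 0.000521). COR15B, a chloroplast protein induced by cold, moved the other way, with 8.92, 9.90, 8.79 and 7.57 in MLD-stressed rpoTmp, against 11.33, 11.26, 10.77 and 11.33 in untreated rpoTmp, a fall by 2.38 ± 0.39 (SE, adjusted p = 0.000981). Of 4 oxidative and high light genes, TAPX, the thylakoid ascorbate peroxidase, fell by 2.23 ± 0.20 (SE, adjusted p = 2.75e-05), and STZ, a zinc finger repressor of stress responses, rose by 4.57 ± 0.56 (SE, adjusted p = 0.00019). Of 11 tau glutathione transferases, GSTU16 rose by 1.47 ± 0.16 (SE, adjusted p = 7.96e-05) and 4 members fell, GSTU18 by 2.02 ± 0.11 (SE, adjusted p = 2.92e-06), while 2 were higher without line 2 MLD replicate 1. Jasmonate-linked genes were lower in 2 of 4, among them the defensin PDF1.2, whose untreated signals were uneven: 3.06, 3.17, 3.05 and 2.77 in MLD-stressed rpoTmp, against 6.74, 6.59, 9.49 and 7.46 in untreated rpoTmp, a fall by 4.56 ± 0.90 (SE, adjusted p = 0.00316). Neither of the 2 was called in line 2 fitted alone, and 1 was called lower without any 1 of 6 arrays: all but untreated replicate 2 of line 1 and untreated replicate 1 of line 2. In starch metabolism APL3, a large subunit of ADP-glucose pyrophosphorylase, rose by 2.25 ± 0.25 (SE, adjusted p = 0.000108) and AMY1, an alpha-amylase, by 3.82 ± 0.64 (SE, adjusted p = 0.0012), and 1 of the 4 measured genes, AT1G62660, fell by 1.40 ± 0.35 (SE, adjusted p = 0.0118). Among sugar and nitrogen transporters, 6 of 31 were higher and 2 lower (5 lower without line 2 untreated replicate 1). Their share of higher calls lay near the 15.7% of all genes. SWEET13, a sucrose exporter, rose by 2.16 ± 0.52 (SE, adjusted p = 0.00876). GI, a clock and flowering regulator, rose by 1.94 ± 0.23 (SE, adjusted p = 0.000168).

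Large enzyme families also split. UDP-glycosyltransferases, a family that holds UF3GT and the UGT78D genes, were higher in 14 of 51 and lower in 3 (5 without line 2 untreated replicate 2), with UGT72E1, which glucosylates coniferyl aldehyde, rising by 2.44 ± 0.24 (SE, adjusted p = 6.1e-05) and UGT76C2, which glucosylates cytokinins, falling by 1.77 ± 0.24 (SE, adjusted p = 0.000333). Of 23 measured cytochromes P450, 6 were higher and 3 lower, and CYP71B26 rose by 2.81 ± 0.45 (SE, adjusted p = 0.000906). Serine carboxypeptidase-like genes were lower in 10 of 29 and higher in 1, scpl48, by 1.74 ± 0.19 (SE, adjusted p = 0.000106). The higher count was 2 without line 1 MLD replicate 2 and 4 without line 2 MLD replicate 1. Aldehyde dehydrogenases, a list added after values were seen, were higher in 4 of 8, ALDH7B4 by 2.42 ± 0.31 (SE, adjusted p = 0.000247), and lower in 1, ALDH3F1, by a change of -1.15 ± 0.20 (SE, adjusted p = 0.00131), with 2 lower without line 2 untreated replicate 1 or wild-type untreated replicates 1 or 3. Of 14 bZIP transcription factors, also an added list, 6 were higher and 1 lower (2 lower without either untreated array of line 2); bZIP44 had 6.91, 6.68, 7.93 and 7.06 in MLD-stressed rpoTmp, against 4.43, 4.54, 5.21 and 4.77 in untreated rpoTmp, a rise of 2.41 ± 0.19 (SE, adjusted p = 1.52e-05). Of 7 WRKY factors 4 were higher, and the median change of the 7 was 0.71 in line 2 and 0.59 in line 1. Fitted alone, line 2 had 4 called higher (11.9% of all genes) and line 1 none (8.98% of all genes). These counts do not test a difference between the lines. Of the 4 called in the mean of both lines, 1 was called without line 1 MLD replicate 1, line 1 untreated replicate 2 or line 2 untreated replicate 1. Without line 1 untreated replicate 1, 2 were called. Beta-glucosidases were lower in 4 of 22, a share near the 15% of all genes, and higher in none. BGLU16 of this list fell by 3.04 ± 0.18 (SE, adjusted p = 3.96e-06). Of the 22, 2 were lower without line 1 untreated replicate 1, and 2 were higher without either MLD array of line 2.

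**Figure D3:**
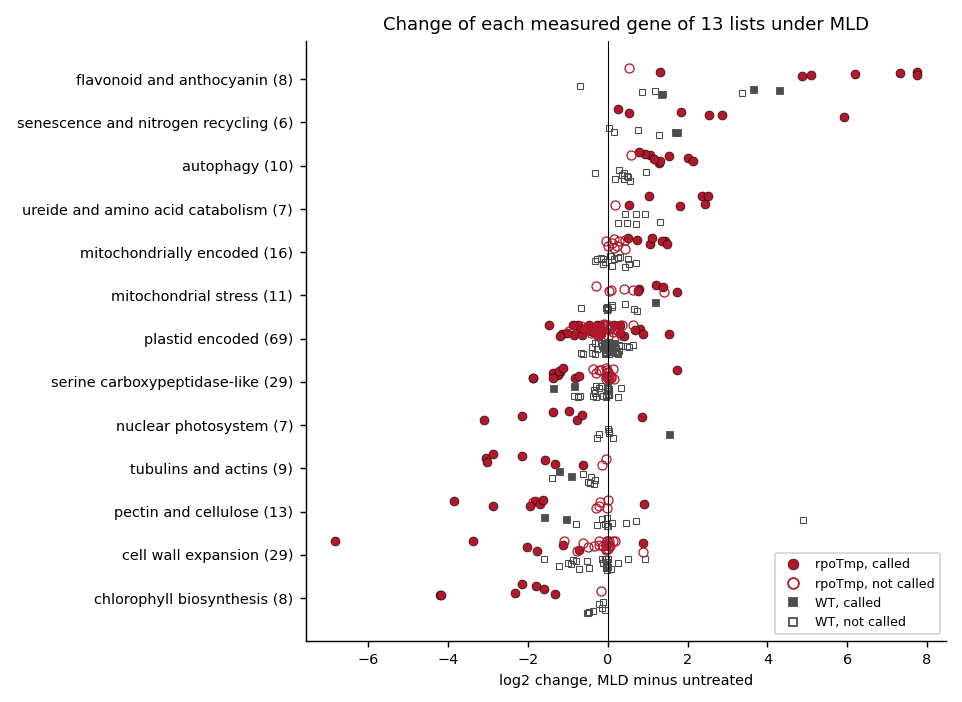
Log2 change (MLD minus untreated, x axis) of every measured gene of 13 lists, with the number of genes in brackets; red circles are rpoTmp and grey squares wild type, filled where called. Flavonoid genes of rpoTmp reach 7.75 and chlorophyll genes -4.21, while plastid-encoded genes stay between -1.46 and 1.53.

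Called counts and the size of median changes were larger in line 2 of the mutant than in line 1. Fitted alone, line 2 had 6310 probe sets called (27.7%) and line 1 had 4682 (20.6%). Of the 7891 called in the mean of both, 3849 (48.8%) were called in each line in the same direction. Across 22746 probe sets the changes of the lines correlated with r = 0.895, a description over probe sets that share arrays. The change was larger in line 2 for 5584 of the 7891 (70.8%). The median change of the probe sets called higher was 0.97 in line 2 and 0.80 in line 1, and of those called lower -1.10 in line 2 and -0.86 in line 1. HEME1, for example, changed by -5.01 in line 2 and -3.35 in line 1, and TBL38 by 4.47 in line 2 and 2.49 in line 1. Of 8 flavonoid genes, 7 were called higher in line 2, where 11.9% of all genes were, and 6 in line 1, where 8.98% were. These counts, shares and medians over probe sets do not test a difference between the lines. Tested directly, line 2 differed from line 1 in 14 probe sets (0.0615%), 12 of them with a positive difference. This number ranged from 13 to 477 when 1 array was left out and was highest without line 2 MLD replicate 1. Among the 10890 probe sets with a mean log2 of at least 5, limma called 0 different between the lines, with 924 at an unadjusted p under 0.05. AT2G04070, a MATE-type transporter of the mitochondrial stress list with a mean log2 under 5 over the 14 arrays, was the 1 gene named by rule. AT2G04070 had log2 signals of 5.59, 5.50, 4.92 and 4.61 in MLD-stressed rpoTmp, against 2.997, 2.93, 4.83 and 4.32 in untreated rpoTmp. Its untreated signals in line 1 lay near the stressed ones, and the changes of 2.58 in line 2 and 0.19 in line 1 differed by 2.39 ± 0.25 (SE, adjusted p = 0.0144). Without line 2 untreated replicate 2 the adjusted p of this difference was 0.0509.

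**Figure D4:**
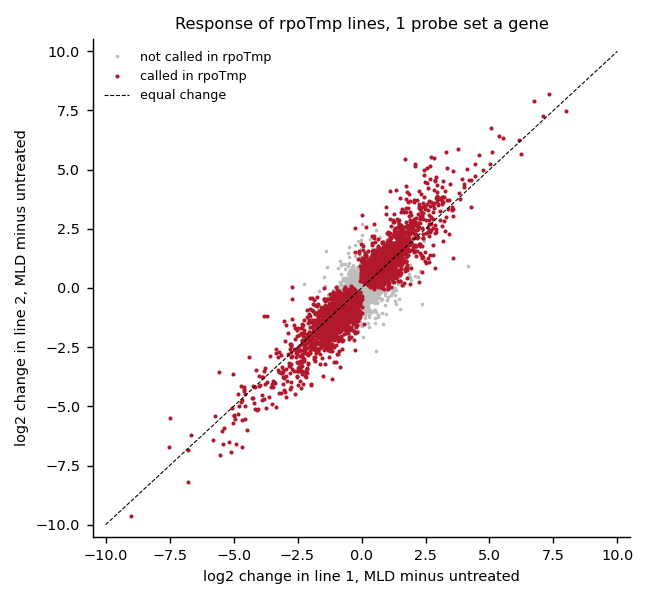
Log2 change (MLD minus untreated) of 1 probe set a gene in line 2 (y axis) against line 1 (x axis); red points were called in the mean of both lines and the dashed line marks equal change. Called points follow the diagonal and lie more often on the side of the larger change in line 2.

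In wild type of the same set MLD changed fewer transcripts. Stressed and untreated wild type differed in 820 probe sets (3.61%), and 598 of these (72.9%) were called in rpoTmp in the same direction, which is 7.58% of the rpoTmp calls; 45 were called in opposite directions. Across 22746 probe sets the changes of the genotypes correlated with r = 0.527. The wild-type count rested on single arrays: it lay between 127 (without wild-type untreated replicate 1) and 914 when 1 array was left out. With a replicate block it was 57, with 47 of them among the 820. The responses differed between the genotypes, by the test of the interaction, in 3397 probe sets (14.9%), 1571 with a higher and 1826 with a lower change in rpoTmp. Of the probe sets called higher in rpoTmp, 1447 of 4098 (35.3%) had a called positive interaction, against 6.91% of all probe sets. Of those called lower, 1715 of 3793 (45.2%) had a called negative interaction, against 8.03% of all. Both calls draw on the same rpoTmp arrays, so the selection favours these shares and they are no separate test. The count of 3397 lay between 2531 (without line 1 untreated replicate 1) and 3781 when 1 array was left out, and was 3157 with line 2 alone and 1475 with line 1 alone. Labelled age differs between the genotypes in the characteristics and the protocol, and its part cannot be told apart from that of the mutation.

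Most measured anthocyanin and flavonoid genes rose further in rpoTmp than in wild type. At 1 probe set a gene, 13% of genes had a called interaction (5.85% higher and 7.15% lower in rpoTmp) and 3.22% a called wild-type change (1.43% higher, 1.79% lower). Of 8 flavonoid genes, 6 had a larger rise in rpoTmp, a count that was 4 without wild-type untreated replicate 2, and 3 rose in wild type (2 without wild-type MLD replicate 1). AT4G14090 had 5.83, 6.82 and 5.13 in MLD-stressed wild type, against 2.02, 1.72 and 3.08 in untreated wild type, and rpoTmp exceeded this change by 4.099 ± 0.66 (SE, adjusted p = 0.00347). AT5MAT gave 2.82, 3.91 and 2.16 in MLD-stressed wild type, against 2.11, 2.15 and 2.06 in untreated wild type; its wild-type change was not called (adjusted p = 0.391), and the difference was 5.34 ± 0.59 (SE, adjusted p = 0.00073). For UGT78D2 the difference was 3.51 and for CHIL 3.71. UF3GT rose in wild type by 4.31 ± 0.59 (SE, adjusted p = 0.0106), with 7.23, 7.56 and 4.999 in MLD-stressed wild type, against 1.96, 2.12 and 2.79 in untreated wild type.

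Autophagy genes were called in 6 of 10 for a larger rise in rpoTmp, and in none for a wild-type change (1 without wild-type MLD replicate 3 or any 1 MLD array of rpoTmp). ATG8B differed by 1.95 ± 0.36 (SE, adjusted p = 0.00677) and APG8A by 1.18. BETA-VPE, with 5.50, 5.06 and 3.97 in MLD-stressed wild type, against 3.72, 3.52 and 3.43 in untreated wild type, rose further in rpoTmp by 4.64 ± 0.51 (SE, adjusted p = 0.000725), whereas GAMMA-VPE rose in both (1.75 in wild type) with a difference of 1.10 ± 0.36 (SE, adjusted p = 0.0702), which did not pass. Its list had 2 wild-type calls, and 1 without wild-type MLD replicate 1. Further larger rises were those of AT5G39520 (5.98), AT1G68620 (4.90), HIS1-3 (4.62), AT5G38710 (4.56) and AT3G48020 (4.41). CuAO1 differed by 2.08, TBL38 by 3.67, COR47 by 2.06, NDB3 by 2.26 and AT5G64400 by 0.67. NDB2 also rose in wild type, by 1.22 ± 0.22 (SE, adjusted p = 0.0239), and the difference was -0.02 ± 0.29 (SE, adjusted p = 0.981). Of 16 measured mitochondrially encoded genes, 2 had a called positive difference and none a negative one. They were cox1 (1.57 ± 0.29, SE, adjusted p = 0.00724) and cox2 (1.01 ± 0.29, SE, adjusted p = 0.0436). The cox2 call was lost without any 1 of 12 arrays. Of 69 plastid-encoded genes, rbcL was the 1 with a called positive difference (1.41 ± 0.28, SE, adjusted p = 0.00992). A called negative difference was found for 7 of the 69 (2 without line 1 untreated replicate 1). No measured organelle-encoded gene was called in the wild-type response (1 mitochondrial gene without wild-type MLD replicate 3).

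Chlorophyll and photosystem genes fell further in rpoTmp than in wild type in 7 of 8 and 6 of 7 measured members, and none of them was called lower in wild type. PORB had 10.85, 10.89 and 11.19 in MLD-stressed wild type, against 11.54, 11.15 and 11.79 in untreated wild type, and the difference was -3.69 ± 0.48 (SE, adjusted p = 0.00146). HEME1 differed by -3.69, CHLM by -2.02, HEMB1 by -1.94, LHCB4.2 by -2.82, PSAN by -1.94, PSAE-1 by -1.40 and LHCB4.1 by -0.98. The chlorophyll count was 5 without wild-type MLD replicate 3. LHCB4.3, the form that rose, also rose in wild type, by 1.55 ± 0.22 (SE, adjusted p = 0.0125). The thylakoid peroxidase TAPX differed by -2.53. AT2G10940, with 11.27, 11.62 and 12.10 in MLD-stressed wild type, against 12.99, 12.67 and 12.91 in untreated wild type, differed by -8.14 ± 0.53 (SE, adjusted p = 7.53e-05). AT5G44020 differed by -6.17, AT1G31690 by -5.95, AT1G66100 by -5.93, AT1G52770 by -5.80, AT5G13140 by -5.47, AT2G34620 by -5.46 and EXPA8 by -5.23. Of the tubulins and actins, 2 also fell in wild type. TUB5 had 9.04, 8.97 and 9.08 in MLD-stressed wild type, against 9.92, 9.77 and 10.04 in untreated wild type, a wild-type change of -0.88 ± 0.16 (SE, adjusted p = 0.0265), and rpoTmp differed by -2.17. TUB7 differed by -1.67, CSLC04 by -2.83, CSLA03 by -2.09, XTH32 by -3.86, POLA3 by -2.49 and HTB2 by -2.94. The wild-type calls of both tubulins and of NDB2 were lost without wild-type MLD replicate 1, and that of LHCB4.3 without wild-type untreated replicate 1.

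**Figure D5:**
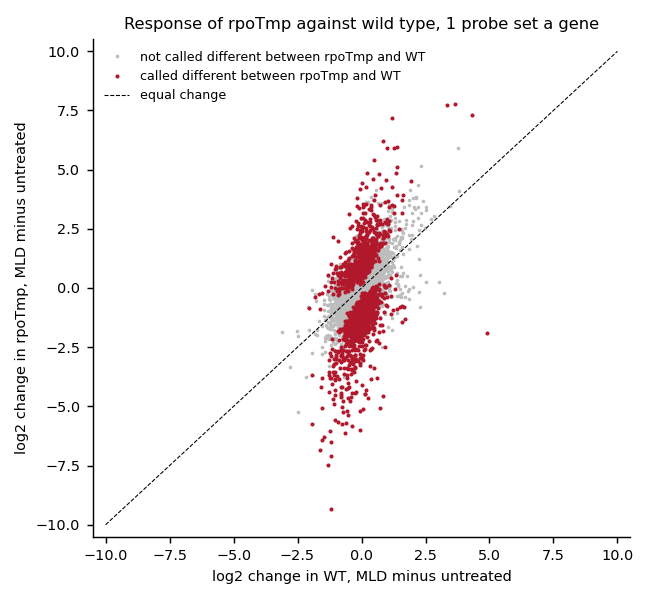
Log2 change (MLD minus untreated) of 1 probe set a gene in rpoTmp (y axis) against wild type (x axis); red points have a called difference between the genotypes and the dashed line marks equal change. Most points spread along the y axis, and the called ones lie away from the diagonal, down to -9.33 for AT2G10940 in rpoTmp.

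The response correlated most with that of the other single mutant among the 3 responses compared. In a fit of all 40 arrays aox1a, mutated in the main alternative oxidase gene of leaves, had 10465 probe sets called (46.0%), and across 22746 probe sets its changes correlated with those of rpoTmp with r = 0.864. No array is shared between these responses. The rpoTmp response differed from the aox1a response in 2148 probe sets (9.44%), 853 with a higher and 1295 with a lower change in rpoTmp. The sets of arrays and any batch cannot be told apart from the mutants here. With the wild-type response of its own set subtracted from each, 329 probe sets differed, 258 of them among the 2148. Of 16 genes named by rule for this difference, 2 stayed called in the same direction with wild type subtracted, the kinase WNK9 and the auxin-responsive IAA29. Another 12 kept their direction but were no longer called. In the remaining 2, AT3G16530 and AT3G23550, the sign turned but neither was called (adjusted p = 0.8 and 0.987). AT4G14090 rose by 7.75 in rpoTmp and 9.66 in aox1a, and PORB changed by -4.21 in rpoTmp and -3.94 in aox1a. AT2G38870 rose by 3.80 in rpoTmp and was not called in aox1a (-0.44, adjusted p = 0.541), a difference of 4.24 ± 0.72 (SE, adjusted p = 0.000399), which was 2.43 with wild type subtracted (adjusted p = 0.321). AT1G47400 changed by -4.32 in rpoTmp and -1.02 in aox1a, a difference of -3.30 ± 0.56 (SE, adjusted p = 0.000448), and of -3.07 with wild type subtracted (adjusted p = 0.0702). CHAT, an acetyltransferase that makes a leaf volatile, and WNK9 rose in aox1a by 5.09 and 2.83 and were not called in rpoTmp, with differences of -4.45 and -2.89. With wild type subtracted the difference was -2.40 for CHAT (adjusted p = 0.089) and -2.93 for WNK9 (adjusted p = 7.65e-12).

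The aox1a:rpoTmp mutant, which carries the rpoTmp mutation too, gave a different response. It had 4632 probe sets called (20.4%), and its changes correlated with those of rpoTmp with r = 0.009 across 22746 probe sets. The rpoTmp response differed from it in 7797 probe sets (34.3%), and in 7755 with the wild-type responses subtracted, 5189 of them among the 7797. Set, batch and labelled age cannot be told apart from the added mutation. In the characteristics, the labelled age of the double mutant and of its wild type also differs between MLD and untreated plants. There, age cannot be told apart from treatment. Of 8 flavonoid genes, 7 rose in rpoTmp and 6 in the double mutant, with median changes of 5.65 in rpoTmp and 3.12 in the double mutant, in which 8.20% of genes were called higher and 10.2% lower. Of 8 chlorophyll genes, 7 fell in rpoTmp and none was called in the double mutant. Of 10 autophagy genes, 9 rose in rpoTmp and 4 fell in the double mutant, and of 11 mitochondrial stress genes 5 rose in rpoTmp and 9 fell in the double mutant. AT1G60590 had 2.21, 2.12, 2.45 and 2.18 in MLD-stressed rpoTmp, against 9.28, 8.52, 8.02 and 5.94 in untreated rpoTmp, and it rose by 5.58 in the double mutant, a difference of -11.28 ± 0.61 (SE, adjusted p = 8.29e-13). AT2G10940 changed by -9.33 in rpoTmp and 0.02 in the double mutant, a difference of -9.36 ± 0.77 (SE, adjusted p = 1.47e-09). EXPA8 differed by -8.33 and AT1G52770 by -8.16. On the other side, AT1G52200 differed by 7.49, AT5G38710 by 7.46, AT1G02470 by 6.95 and AT5G39520 by 6.90.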

How the data were processed

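Leaf RNA was labelled by the standard Affymetrix protocol and hybridised to ATH1 arrays, per the labels. The authors deposited 1 table of linear signal intensity for 22810 probe sets on 40 arrays. Per the submitters' processing notes the tools were Affymetrix Expression Console, MAS5, GCRMA and Partek 6.5, with no roles named, so the step that made the deposited intensity values is not settled. All value columns were mapped to samples by their labels, and 0 were left over. Intensities were taken as log2 with no pseudocount, background step or rescaling, and 64 control probe sets were left out, leaving 22746. The platform annotation gave 1 gene for 13513 of all probe sets, several for 503 and none for 8730. Symbols came from a RefSeq gene table of TAIR10.1, which matched 13436. Of probe sets of the same gene (146 genes had several), the one with the highest mean stood for it.

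Linear models were fitted with limma 3.58.1 (lmFit, eBayes) in R 4.3.3, on the 14 arrays of rpoTmp and its wild type (6 groups, 8 residual degrees of freedom), with the lines averaged at equal weight, and on all 40 arrays (24 residual degrees of freedom) for differences from the other mutants. Counts and figures were made with Python 3.11.15 and pandas 2.3.3. The p-values were adjusted by Benjamini-Hochberg over all 22746 probe sets. The fit was also run on simulated arrays with independent noise and far fewer changed probe sets than were called here. That run does not show how well the model suits these data. The number of arrays limits the precision.

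Genes were named by rule: up to 15 each way for the response, 8 for the interaction and each mutant difference, and 5 for the line difference, taken among calls whose arrays did not overlap and whose higher group averaged 5 or more on the log2 scale, plus up to 4 called members each way per list. A few further members were named to complete a list, and these and other genes set beside them were chosen after their values were seen. The 8 arrays and the 54 gene lists were chosen with earlier results of these data known, and 12 more lists were added after the values were seen. Lists hold only the entries with a probe set of 1 gene, so that most lists are covered in part. Alternatives were each array left out in turn, a replicate block, other scalings, a filter on dim probe sets, a pseudocount of 16, another moderation, each line alone, the 8 arrays alone, a minimum log2 change of 1 and subtraction of the wild-type response. Replicate numbers did not pair arrays: deviations of same-numbered arrays correlated at 0.004 in line 1, 0.017 in line 2 and between -0.103 and 0.053 in wild type. Promoter sequences were not analysed here.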

Additional observations from a re-analysis of the deposited data

Results flagged for a closer look

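Each value here is a difference between 2 responses on the log2 scale, tested as such in limma with an adjusted p under 0.05. Groups of 2 or 3 arrays are too small for the check of single outlying arrays.

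The rpoTmp response minus the wild-type response was called in 3397 probe sets. Among larger rises in rpoTmp were the anthocyanin genes AT5MAT (5.34), AT4G14090 (4.1), CHIL (3.71) and UGT78D2 (3.51), and the protease gene BETA-VPE (4.64). AT5G39520 (5.98), AT1G68620 (4.90), HIS1-3 (4.62), AT5G38710 (4.56), AT3G48020 (4.41) and TBL38 (3.67) also rose more. Smaller positive differences were those of ATG8B (1.95), APG8A (1.18), CuAO1 (2.08), COR47 (2.06), NDB3 (2.26), AT5G64400 (0.67), cox1 (1.57) and rbcL (1.41). Of 69 measured plastid-encoded genes, rbcL was the 1 called with a positive difference, and 7 were called with a negative one. Among larger falls were AT2G10940 (-8.14), AT5G44020 (-6.17), AT1G31690 (-5.95), AT1G66100 (-5.93), AT1G52770 (-5.80), AT5G13140 (-5.47), AT2G34620 (-5.46) and EXPA8 (-5.23). Chlorophyll and photosystem genes differed by -3.69 (PORB), -3.69 (HEME1), -2.02 (CHLM), -1.94 (HEMB1), -2.82 (LHCB4.2), -0.98 (LHCB4.1), -1.94 (PSAN) and -1.40 (PSAE-1), and the peroxidase TAPX by -2.53. Growth genes differed by -2.17 (TUB5), -1.67 (TUB7), -2.83 (CSLC04), -2.09 (CSLA03), -3.86 (XTH32), -2.49 (POLA3) and -2.94 (HTB2).

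The line 2 response minus the line 1 response was called in 14 probe sets, among them AT2G04070 (2.39). The rpoTmp response minus the aox1a response was called in 2148, among them AT2G38870 (4.24), CHAT (-4.45), AT1G47400 (-3.30) and WNK9 (-2.89). The rpoTmp response minus the double mutant response was called in 7797. Its largest named values were those of AT1G60590 (-11.28), AT2G10940 (-9.36), EXPA8 (-8.33), AT1G52770 (-8.16), AT1G52200 (7.49), AT5G38710 (7.46), AT1G02470 (6.95) and AT5G39520 (6.90).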

How the results depend on the processing

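The response count of 7891 lay between 6675 and 7877 when 1 array was left out and was 7398 with a replicate block. It was 7887 with quantile normalisation, 7874 with median centring, 7659 with a pseudocount of 16 and 7808 with trended robust moderation. With a filter on dim probe sets it was 6715 of the 10890 tested, a larger share than that of 7891 among 22746. The 8 arrays alone gave 6803, line 2 alone 6310 and line 1 alone 4682, and 3585 also changed by at least 1. The wild-type count of 820 lay between 127 and 914 without 1 array and was 57 with the block, 47 of them among the 820. With the filter on dim probe sets it was 1192 of 10890. It was 449 or fewer without any 1 of 5 wild-type arrays: untreated replicates 1 (127), 2 (449) and 3 (306) and MLD replicates 1 (194) and 2 (181). The interaction count of 3397 lay between 2531 and 3781, was 2633 with the block, 3157 with line 2 alone and 1475 with line 1 alone. The difference between lines, 14 probe sets, lay between 13 and 477; it was 477, 125 and 124 without line 2 MLD replicates 1 and 2 and untreated replicate 1, 89 and 54 without line 1 MLD replicates 1 and 2, and 24 without line 1 untreated replicate 2. With the filter on dim probe sets limma called 0 of 10890 probe sets different between the lines, with 924 at an unadjusted p under 0.05. The difference from aox1a, 2148, lay between 1629 and 3133 and was 329 with the wild-type responses subtracted; that from the double mutant, 7797, lay between 7208 and 7952 and was 7755. The cause of these changes was not tested. Of 231 genes followed in the response, 205 were called and 31 lost the call without at least 1 array. The sign turned for CYP71B23 in line 1 alone (-0.27, adjusted p = 0.893). With wild type subtracted, the sign turned against aox1a for AT3G16530 (-0.92, adjusted p = 0.8) and AT3G23550 (-0.077, adjusted p = 0.987). Against the double mutant the sign turned for AT4G27654 (0.93, adjusted p = 0.402) and AT4G29780 (1.31, adjusted p = 0.131). None of these turned values was called in limma. Signals at the floor limit the size of falls that end there.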

Other observations

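Several gene families not described above held a few strongly changed members among many dim ones, and all 3 of these lists were added after values were seen. Of 15 measured tetraspanins, membrane proteins of cell contact sites, 3 were higher and 2 lower, shares near the 15.7% and 15% of all genes. TET7 had log2 signals of 3.92, 4.89, 5.63 and 4.34 in MLD-stressed rpoTmp, against 7.81, 8.43, 7.73 and 7.26 in untreated rpoTmp, and it fell by 3.11 ± 0.33 (SE, adjusted p = 7.94e-05), and TET10 fell by 2.48 ± 0.24 (SE, adjusted p = 5.45e-05). Of 7 subtilases, 2 were higher and 1 lower (2 lower without line 2 untreated replicate 1), SBT3.5 by 2.60 ± 0.44 (SE, adjusted p = 0.00129) and SBT1.3 by a change of -2.55 ± 0.25 (SE, adjusted p = 5.78e-05). Of 15 glycosyl hydrolases of family 9, which act on cell wall glucans, 3 were lower, a share near the 15% of all genes, and 1 higher. GH9C2 had 5.73, 6.03, 6.29 and 4.49 in MLD-stressed rpoTmp, against 9.74, 8.98, 9.04 and 7.85 in untreated rpoTmp, a fall by 3.27 ± 0.42 (SE, adjusted p = 0.000253).

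Of 12 measured auxin response genes 2 were higher, a share near the 15.7% of all genes, and 1 lower. The higher count was 1 without any 1 of 10 arrays, line 1 MLD replicate 1 among them, since GH3.3 then lost its call (adjusted p of up to 0.112). WES1, which conjugates auxin to amino acids, had 4.97, 4.06, 4.03 and 4.66 in MLD-stressed rpoTmp, against 2.19, 2.22, 2.56 and 2.13 in untreated rpoTmp, a rise of 2.16 ± 0.27 (SE, adjusted p = 0.000212). Of 8 calmodulin-like genes the 1 called was CML41, with 7.29, 7.30, 7.55 and 5.33 in MLD-stressed rpoTmp, against 2.79, 3.29, 2.79 and 3.80 in untreated rpoTmp, a rise of 3.70 ± 0.43 (SE, adjusted p = 0.000134), and 2 were called without line 1 MLD replicate 2. Hsp70-2, a chaperone, rose by 1.89 ± 0.37 (SE, adjusted p = 0.00315), the 1 of 3 measured heat shock genes that was called (2 without line 1 untreated replicate 2). Of 7 bHLH factors 3 were lower and 2 higher, but 1 was lower without any 1 of the 8 rpoTmp arrays, line 1 MLD replicate 1 among them, where bHLH121 and AT1G22490 lost their calls. bHLH115 and ILR3, related regulators of iron supply, moved in opposite directions, bHLH115 by -1.27 ± 0.17 (SE, adjusted p = 0.000367) and ILR3 by 0.69 ± 0.07 (SE, adjusted p = 8.22e-05). Of 41 flowering and MADS genes, most of them dim, 3 were higher and 2 lower, with AGL65 rising by 1.65 ± 0.20 (SE, adjusted p = 0.000162). Without line 2 MLD replicate 1, 7 were higher and 3 lower, and 1 was lower without any 1 of 5 other rpoTmp arrays, line 1 MLD replicate 1 among them. Neither measured glucosinolate gene was called, and UGT74B1, a glucosyltransferase of that pathway, differed by -0.35 ± 0.14 (SE, adjusted p = 0.0752); 1 was lower without wild-type MLD replicate 2 or untreated replicate 1.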
